A study of Mus musculus with 262 samples.

Results

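Mcoln1, Mcoln2 and Mcoln3 encode the mucolipins, also called TRPML channels, a small branch of the transient receptor potential (TRP) family of cation channels. The 3 genes were chosen by symbol and are the whole family among the 47069 genes of each deposited TPM table (TPM is a transcript abundance scaled to gene length and to a fixed total per sample). They were found in every table. The choice was made with earlier single-cell results in view, in which Mcoln3 had already stood out in principal cells. Its levels in single cells are therefore given as a description, with no test.

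Mucolipins sit in the membranes of lysosomes and endosomes, where the lipid PI(3,5)P2 opens them and they release calcium and other cations into the cytosol. Mcoln1 is made in most tissues, and its loss causes the lysosomal storage disease mucolipidosis type IV in people. Mcoln2 is best known from lymphoid and other immune cells, and Mcoln3 from hair cells of the inner ear and from melanocytes, where a gain-of-function allele causes deafness and pigment loss in the varitint-waddler mouse. Calcium that leaves the lysosome through the Mcoln1 channel activates calcineurin, which lets the transcription factor Tfeb enter the nucleus and switch on lysosomal genes.

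The samples were 262 RNA-seq libraries of polyadenylated RNA from kidneys of male mice aged 2 months. Single cells were captured on a microfluidic chip after sorting from C57BL/6 mice, and the authors assigned them to types as 74 principal, 87 type A and 23 type B intercalated, 19 proximal tubule and 32 non-epithelial cells. Bulk samples of C57BL/6 cells were sorted on c-Kit (2 samples) or on DBA, a lectin (2 samples), and 2 GFP-positive and 2 GFP-negative samples came from the strain Atp6v1b1GFP. Single tubules were dissected by hand from C57BL/6 kidneys, 11 from the cortical collecting duct (CCD) and 8 from the cortical thick ascending limb (cTAL). No treatment is named in the labels for any group. Sorted fractions are enriched rather than pure, and the labels do not say which animal gave which cell or sorted sample, so p-values measure the spread between these samples only. Tubule columns carry an m number from m1 to m7, which is not stated to be an animal. CCDs came from all 7 m numbers and cTALs from 6 of them.

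Labels were checked against marker genes. The summed TPM of 8 principal cell markers (Aqp2, Aqp3, Aqp4, Avpr2, Fxyd4, Hsd11b2, Scnn1b and Scnn1g) ran from 26368 to 48119 in the CCDs and from 44.2 to 214 in the cTALs. The summed TPM of 5 thick ascending limb markers ran from 53.5 to 701 in the CCDs and from 33613 to 53916 in the cTALs. Principal marker sums were 23272 and 25868 TPM in the DBA samples and 2842 and 3759 TPM in the c-Kit samples, while type A markers summed to 61.1 and 73.1 TPM in DBA and to 3059 and 3097 TPM in c-Kit. Reads in genes were between 35530885 and 40815091 per GFP sample, and depth is unknown for the TPM tables. The median number of detected genes per cell was between 2704 and 3253 in the 5 cell types.

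Mcoln3 (ENSMUSG00000036853) lies on the plus strand of chromosome 3 (GENCODE annotation of GRCm38) at chr3:146117450-146141806, and Mcoln2 (ENSMUSG00000011008) follows on the same strand at chr3:146149833-146195513, 8026 bases further on. Mcoln1 (ENSMUSG00000004567) lies apart from them at chr8:3500457-3515232, also on the plus strand. No other annotated gene overlaps any of them. The 3 genes are paralogs, and how reads that fit more than 1 of them were counted is not given in the labels or files.

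Start-site sequences are shown because the members differ in CACGTG, the core letters of the lysosomal gene motif GTCACGTG that Tfeb and its relatives bind. They come from the RefSeq promoter table (build GRCm38.p6), which gives 250 bases before and 50 after each start and held all 3 members. Each run reads 5′ to 3′ on the plus strand, and capitals mark CACGTG. For Mcoln1 and Mcoln3 the stretch before the first annotated exon in the window is printed, and for sites near or inside an exon 20 bases. The Mcoln3 window lies inside the annotated gene, before a later exon. The printed Mcoln2 site also lies inside its annotated gene, outside an exon.
Mcoln1, chr8:3500269-3500456: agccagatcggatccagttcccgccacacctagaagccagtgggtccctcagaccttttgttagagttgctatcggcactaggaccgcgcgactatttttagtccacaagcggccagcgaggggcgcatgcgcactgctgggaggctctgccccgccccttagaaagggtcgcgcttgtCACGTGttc
Mcoln1, chr8:3500467-3500486: ccccgctCACGTGaccgcgg
Mcoln2, chr3:146150095-146150114: gagctcaCACGTGgacccca
Mcoln3, chr3:146121541-146121671: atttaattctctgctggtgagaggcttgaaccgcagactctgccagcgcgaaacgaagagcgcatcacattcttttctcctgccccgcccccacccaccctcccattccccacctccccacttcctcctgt

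The Mcoln1 window held CACGTG at 2 places, starting 71 and 45 bases before the RefSeq start, and both are part of GTCACGTG on 1 of the strands. The Mcoln2 window held CACGTG once, 72 bases before its RefSeq start, which lies inside the annotated gene, without the longer motif. In the Mcoln3 window neither motif was found on either strand. CACGTG occurred in a window of 8.09% of the 27025 genes in the table and in 9 of the 20 lysosomal protein genes of a list of 25 that the table holds (45%). GTCACGTG, which contains CACGTG, occurred in 2.55% of all genes and in 7 of those 20 (35%). A match in these letters is a description of the window and not a measured binding site.

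Mcoln1, the broadly made member, was found in every sorted sample and every tubule. In the c-Kit, DBA and tubule samples it stayed between 46.02 and 143.46 TPM. The c-Kit samples held 109.17 and 103.38 TPM and the DBA samples 104.19 and 106.42 TPM. These values overlapped. The log2(TPM + 1) difference, c-Kit minus DBA, was 0.01 (SE 0.06, 95% interval -0.14 to 0.17, adjusted p = 0.892, limma with Benjamini-Hochberg adjustment). In this comparison 44.3% of the 14341 genes tested passed an adjusted p of 0.05.

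Among the CCDs Mcoln1 ran from 50.19 through a median of 106.35 to 143.46 TPM (98.2 ± 30.3, SD, n = 11), and among the cTALs from 46.02 through 68.0 to 92.5 TPM (67.8 ± 14.2, SD, n = 8). The 2 groups overlapped, and both members of a pair of CCDs with 1 m number could lie far apart, as with 124.38 and 58.25 TPM for m7. The log2(TPM + 1) difference, CCD minus cTAL, was 0.48 (SE 0.22, 95% interval 0.03 to 0.94), and it did not pass the test (adjusted p = 0.135, limma with Benjamini-Hochberg adjustment). Of the 13520 genes tested here 18.7% passed. Mcoln1 passed only where samples were weighted by their quality, with a difference of 0.58 (adjusted p = 0.00892, limma with Benjamini-Hochberg adjustment). Mean Mcoln1 was higher in CCD than in cTAL in each of the 6 m numbers with both tubule types, by 0.04 to 1.17 on the log2(TPM + 1) scale.

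GFP-negative samples held 1753 and 1485 Mcoln1 reads and GFP-positive samples 856 and 1032. Scaled to the library total as CPM, this was 42.3 ± 1.68 in GFP-negative and 25.1 ± 2.99 in GFP-positive cells (SD, n = 2 each), without overlap. The log2 difference, GFP-positive minus GFP-negative, was -0.75 (SE 0.21, adjusted p = 0.0240, edgeR quasi-likelihood test with Benjamini-Hochberg adjustment), and 32.6% of the 15671 genes tested passed here. The call was lost without GFP-negative replicate 2 (-0.70, adjusted p = 0.0910, edgeR), without GFP-positive replicate 1 (-0.66, adjusted p = 0.101, edgeR) and on the deposited RPKM values (-1.12, adjusted p = 0.0684, limma). Both GFP-positive samples were lower than both GFP-negative samples in CPM, and the call depended on single samples. With 2 samples in each group, here and in the other sorted comparisons, such separation carries little weight by itself. Among genes that did not pass here, Vac14 was also without overlap, while Pikfyve overlapped. All 6 proximal tubule markers and all 6 tested non-epithelial markers were lower in GFP-positive cells as well, with proximal sums of 1575 and 1676 RPKM in GFP-negative and of 166 and 322 RPKM in GFP-positive samples. The part of these cells in the Mcoln1 difference was not tested.

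In single cells Mcoln1 was rarely seen. It reached 1 TPM in 16 cells, 3 of type A, 3 of type B, 5 principal, 3 proximal tubule and 2 non-epithelial cells, and its median was 0 in every type. Type B cells averaged 29.4 TPM, principal cells 6.60, proximal tubule cells 1.27, type A cells 0.135 and non-epithelial cells 0.0953 TPM. This order rests on 5 cells: 3 type B cells at 435.16, 209.02 and 31.82 TPM and 2 principal cells at 289.25 and 190.27 TPM. Without its highest cell the type B mean was 11.0 TPM. Neighbouring types in this order are not told apart by so few cells. Every tubule and every c-Kit or DBA sample, by contrast, held at least 46.02 TPM of Mcoln1, and what sets the single cells apart was not tested.

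**Figure D1:**
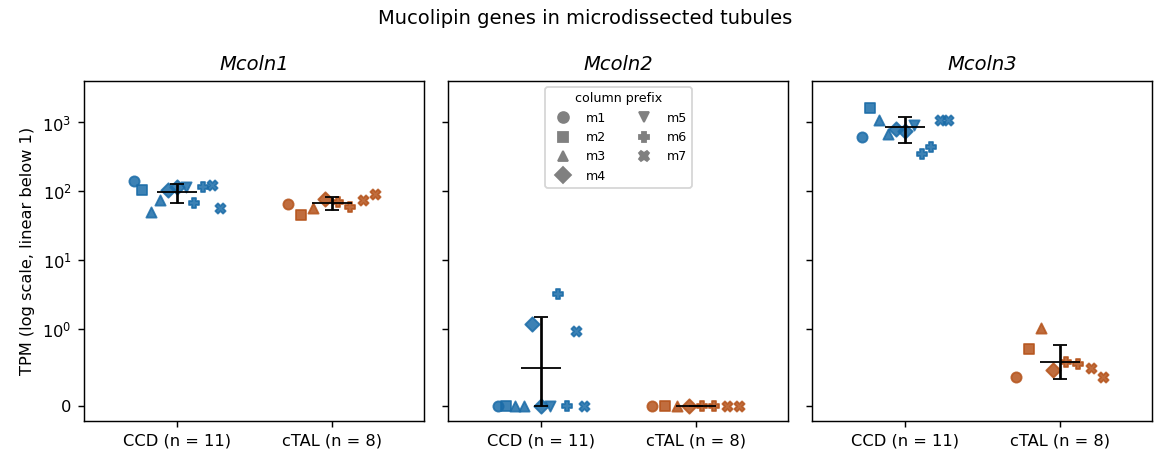
TPM of Mcoln1, Mcoln2 and Mcoln3 in single microdissected tubules (vertical axis, log scale that is linear below 1), with 1 point per tubule, marker shapes for the m number in the column name, and bars for the mean and SD (lower bars stop at 0). Mcoln3 lies between 346.4 and 1625.96 TPM in the CCDs and between 0.37 and 1.04 TPM in the cTALs, while Mcoln1 overlaps between them and Mcoln2 is above 0 in 3 CCDs only.

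Mcoln2, the member best known from immune cells, was the scarcest in every group. In the tubules it was above 0 in 3 of 11 CCDs, at 0.98, 1.2 and 3.27 TPM, and was listed at 0 in the other CCDs and in all 8 cTALs. Its mean fell under the filter of 1 TPM over the tubules compared, so it was not tested. Without that filter the log2(TPM + 1) difference was 0.38 (adjusted p = 0.522, limma with Benjamini-Hochberg adjustment). The DBA samples held 0.69 and 0.81 TPM of Mcoln2, and both c-Kit samples had it at 0. It was under the filter there too, and without the filter the difference, c-Kit minus DBA, was -0.81 (adjusted p = 0.00682, limma with Benjamini-Hochberg adjustment).

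The GFP-negative samples held more Mcoln2, with 152 and 118 reads against 13 and 25 in the GFP-positive samples. In CPM this was 3.51 ± 0.0772 against 0.504 ± 0.219 (SD, n = 2 each), and the groups did not overlap. The log2 difference, GFP-positive minus GFP-negative, was -2.79 (SE 0.64, adjusted p = 0.0109, edgeR with Benjamini-Hochberg adjustment). The call was lost without GFP-positive replicate 1 (-2.43, adjusted p = 0.0614, edgeR) and on RPKM (-1.60, adjusted p = 0.351, limma). The authors' RPKM values for Mcoln2 were 5.01 and 0.659 in the GFP-negative columns, far apart where the reads were close, and 0 and 0.0791 in the GFP-positive columns. RPKM and reads therefore gave different accounts of this gene.

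Markers of non-epithelial and of proximal tubule cells moved with Mcoln2. Of 7 non-epithelial markers 6 were tested in the GFP comparison and all 6 were lower in GFP-positive cells, and their summed RPKM ran from 283 to 789 in GFP-negative and from 50.8 to 78.2 in GFP-positive samples. The same list summed to 12302 and 12831 TPM in DBA and to 3773 and 4000 TPM in c-Kit samples. The 5 B and plasma cell markers summed to 14.3 and 20.8 TPM in DBA and to 24.5 and 32.8 TPM in c-Kit, the opposite order to Mcoln2. All 6 proximal tubule markers were lower in GFP-positive cells, and 5 of 6 were lower in c-Kit. The proximal sums were 3106 and 3196 TPM in DBA and 1432 and 1597 TPM in c-Kit. The part of any of these cells in the Mcoln2 values was not tested. In a bulk sample fewer cells of a type and less RNA per cell cannot be told apart.

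No single cell of any type had Mcoln2 above 0. Exact 95% intervals allow a share of up to 4.15% of type A, 14.8% of type B, 4.86% of principal, 17.6% of proximal tubule and 10.9% of non-epithelial cells with detectable Mcoln2. These limits cover counting error only.

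**Figure D2:**
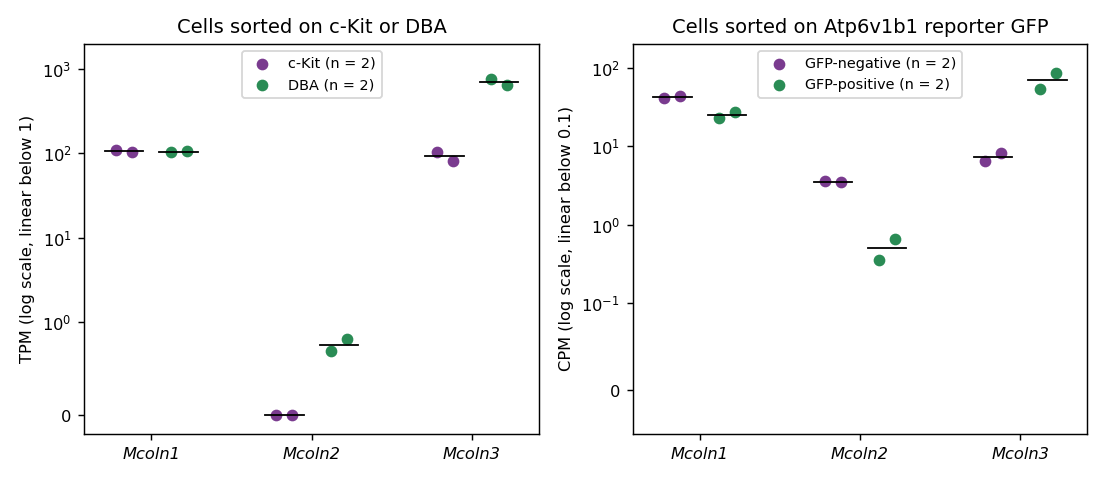
Mucolipin genes in sorted bulk samples, in TPM for the c-Kit and DBA samples and in CPM for the GFP samples (vertical axes, log scales with a linear part near 0), with 1 point per sample and a line at the mean of 2 samples. Mcoln3 is lower in c-Kit than in DBA and higher in GFP-positive than in GFP-negative samples, and Mcoln1 differs little between c-Kit and DBA.

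Mcoln3 separated the tubule segments. CCDs held between 346.4 and 1625.96 TPM with a median of 796.1 (860 ± 358, SD, n = 11), and cTALs between 0.37 and 1.04 TPM with a median of 0.515 (0.575 ± 0.221, SD, n = 8). No CCD came near a cTAL, and the ratio of the means was 1496. The log2(TPM + 1) difference was 8.99 (SE 0.25, adjusted p = 7.33e-18, limma with Benjamini-Hochberg adjustment). It ranked 9 among all differences toward CCD, a direction in which 13.2% of the tested genes passed (5.50% passed toward cTAL). Mcoln3 passed the filter of 1 TPM through the CCDs alone, since its cTAL mean was 0.575 TPM. With cTAL values this low the size of the difference, and so its rank, depends on the pseudocount. The difference ran from 7.16 to 10.25 over the alternatives.

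The CCDs varied among themselves. The 2 CCDs with m number 6 were the lowest, at 346.4 and 442.14 TPM, and the single CCD of m2 was the highest at 1625.96 TPM. The pairs of m4 (796.1 and 756.06 TPM) and m7 (1076.6 and 1099.47 TPM) lay close together, and the pair of m3 (1085.27 and 684.13 TPM) did not. Single CCDs of m1 and m5 held 625.76 and 921.5 TPM. Within each of the 6 m numbers with both tubule types the log2(TPM + 1) difference was between 7.98 and 9.87.

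Principal cell markers moved with Mcoln3 between the segments: all 8 were higher in CCD. Markers of type A, type B and intercalated cells in general, 4 in each list, were all higher in CCD too. For each 1000 TPM of principal marker sum, the CCDs held between 11.4 and 33.8 TPM of Mcoln3 (median 27.6) and the cTALs between 2.82 and 8.37 TPM. The part of cell make-up in the difference was not tested.

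Among sorted cells Mcoln3 was higher in the DBA samples, with 767.94 and 657.78 TPM against 102.72 and 81.28 TPM in c-Kit. The groups did not overlap, and the DBA mean was 7.75 times the c-Kit mean. The log2(TPM + 1) difference, c-Kit minus DBA, was -2.95 (SE 0.12, adjusted p = 1.26e-05, limma with Benjamini-Hochberg adjustment), rank 48 among the differences toward DBA, where 28.1% of tested genes passed. All 8 principal markers were lower in c-Kit as well. Mcoln3 per 1000 TPM of principal marker sum was 28.3 and 29.7 in DBA and 27.3 and 28.6 in c-Kit, so this ratio differed by less than it did among CCDs. The ratio was less even elsewhere. In RPKM it was 48.5 and 58.6 in the GFP-positive samples and 26.3 and 43.4 in the GFP-negative samples. Taken from cell means, the ratio was 65.3 for type B, 46.5 for principal and 26.2 for type A. It was 16.7 for proximal tubule and 15.9 for non-epithelial. The type B value rests mainly on 1 cell, which carried 86.3% of the Mcoln3 sum. Of the proximal tubule markers 5 of 6, and of the non-epithelial markers 5 of 7, were lower in c-Kit too, and the proximal sums were 3106 and 3196 TPM in DBA against 1432 and 1597 TPM in c-Kit. The part of these cells in the Mcoln3 difference was not tested.

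GFP-negative samples held 278 Mcoln3 reads each and GFP-positive samples 1994 and 3224. In CPM this was 7.32 ± 1.15 against 69.3 ± 22.3 (SD, n = 2 each), without overlap. The log2 difference, GFP-positive minus GFP-negative, was 3.24 (SE 0.29, adjusted p = 9.52e-05, edgeR with Benjamini-Hochberg adjustment), and 15.2% of tested genes passed in this direction. Mcoln3 thus rose where intercalated markers rose (4 of 4 in each of the 3 lists), while in the c-Kit samples it fell where they rose. Of other markers, 7 of 8 principal and 4 of 4 distal convoluted and connecting tubule markers were higher in GFP-positive cells. All 6 proximal tubule markers and all 6 tested non-epithelial markers were lower. Of 5 thick ascending limb markers 1 was higher, 1 lower and 3 did not pass. The principal markers summed to 822 and 1426 RPKM in GFP-positive and to 245 and 257 RPKM in GFP-negative samples. The part of these cells in the Mcoln3 values was not tested.

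**Figure D3:**
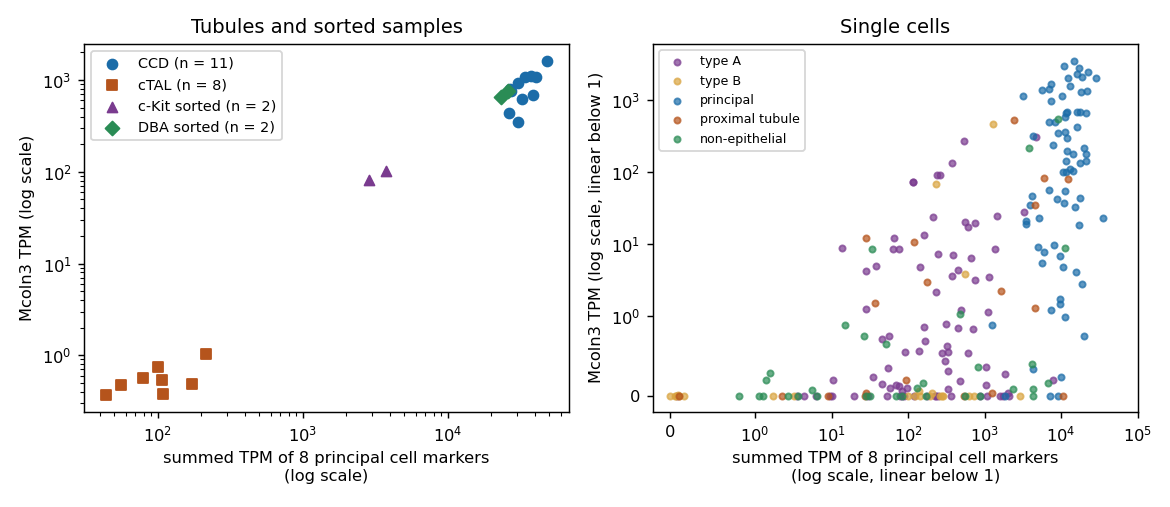
Mcoln3 TPM (vertical axis) against the summed TPM of 8 principal cell markers (horizontal axis), for tubules and sorted samples on log scales (left) and for single cells on scales that are linear below 1 (right). The c-Kit samples lie between the cTALs and the group of DBA samples and CCDs on both axes, and among principal cells Mcoln3 spreads from 0 to 3469 TPM.

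The labels of single cells were checked by setting the summed TPM of the principal markers against that of the markers of each cell's own type. The principal sum was the larger in 8 of 19 proximal tubule cells and 6 of 87 type A cells, and in 0 of 23 type B and 0 of 32 non-epithelial cells. These labels were kept, and the values without those cells are given as well.

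In single cells the mean of Mcoln3 was 555 TPM in principal cells, the water- and sodium-absorbing cells of the collecting duct. It was 39.3 TPM in proximal tubule, 24.6 in non-epithelial, 23.0 in type B and 14.9 in type A cells, so the principal mean was 14.1 to 37.3 times the others. The order of the other 4 types rests on single cells: without the highest cell of each, their means were 12.6, 7.59, 3.30 and 11.5 TPM. Without the cells whose principal marker sum was the larger, a step added after the data were seen, the mean was 2.20 TPM in the 11 proximal tubule cells left and 11.7 TPM in the 81 type A cells left. In type B 1 cell carried 86.3% of the sum. Medians were 137 TPM in principal, 1.29 in proximal tubule, 0.54 in type A, 0.08 in non-epithelial and 0 in type B cells. Each type is 1 sample here, since no animal is named for a cell.

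Mcoln3 reached 1 TPM in 66 of 74 principal cells (89.2%, exact 95% interval 79.8% to 95.2%). The share was 10 of 19 in proximal tubule (52.6%), 33 of 87 in type A (37.9%), 5 of 32 in non-epithelial (15.6%) and 3 of 23 in type B cells (13.0%). Without the cells whose principal marker sum was the larger it was 3 of 11 in proximal tubule and 29 of 81 in type A cells. These intervals and shares cover counting error only, and depth per cell is unknown.

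Principal cells differed widely in Mcoln3. In 8 of them it was under 1 TPM, in 11 between 1 and 10, in 14 between 10 and 100, in 25 between 100 and 1000 and in 16 at 1000 TPM or more. The quartiles were 11.9 and 680 TPM and the highest cell held 3469 TPM. The 8 cells under 1 TPM all had Aqp2, the vasopressin-regulated water channel, at 65.1 to 4354 TPM, and between 5 and 8 of the principal markers. Over the 74 principal cells Pearson's r of log2(TPM + 1) with Mcoln3 ran from 0.12 for Scnn1b, a subunit of the epithelial sodium channel, to 0.38 for Aqp2 over the 8 principal markers, and was 0.24 with the number of genes detected. These are weak correlations within 1 sample of cells whose depth is unknown, and they are given as a description.

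Outside principal cells, Mcoln3 was counted in cells with and without Aqp2, as a description. It reached 1 TPM in 31 of 58 type A cells with Aqp2 at 1 TPM or more and in 2 of 29 without. In proximal tubule cells the counts were 10 of 14 with Aqp2 and 0 of 5 without, and in non-epithelial cells 5 of 15 with and 0 of 17 without. In type B cells the counts were 1 of 3 and 2 of 20. Of the 161 cells outside the principal group, 14 held Mcoln3 at 50 TPM or more, and 10 of these 14 had Aqp2, against 90 of all 161 (55.9%). The type A cells were uneven along their column numbers, looked at after the data were seen. In columns 1 to 27 Aqp2 reached 1 TPM in 3 cells, 0 of them with Mcoln3, and was lower in 24, 1 of them with Mcoln3. In columns 28 to 87 it reached 1 TPM in 55 cells, 31 of them with Mcoln3, and was lower in 5, 1 of them with Mcoln3. The counts over all type A cells therefore compare mainly these 2 column ranges, and what the numbers stand for is not stated. The part of RNA from other cells in these values was not tested.

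Mcoln1 and Mcoln3 were seen together at 1 TPM in 7 cells of all types, Mcoln1 alone in 9, Mcoln3 alone in 110 and neither in 109. Of the 7, 4 were principal cells, 2 proximal tubule and 1 non-epithelial. All 3 type B cells with Mcoln1 and all 3 type A cells with it had Mcoln3 under 1 TPM.

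**Figure D4:**
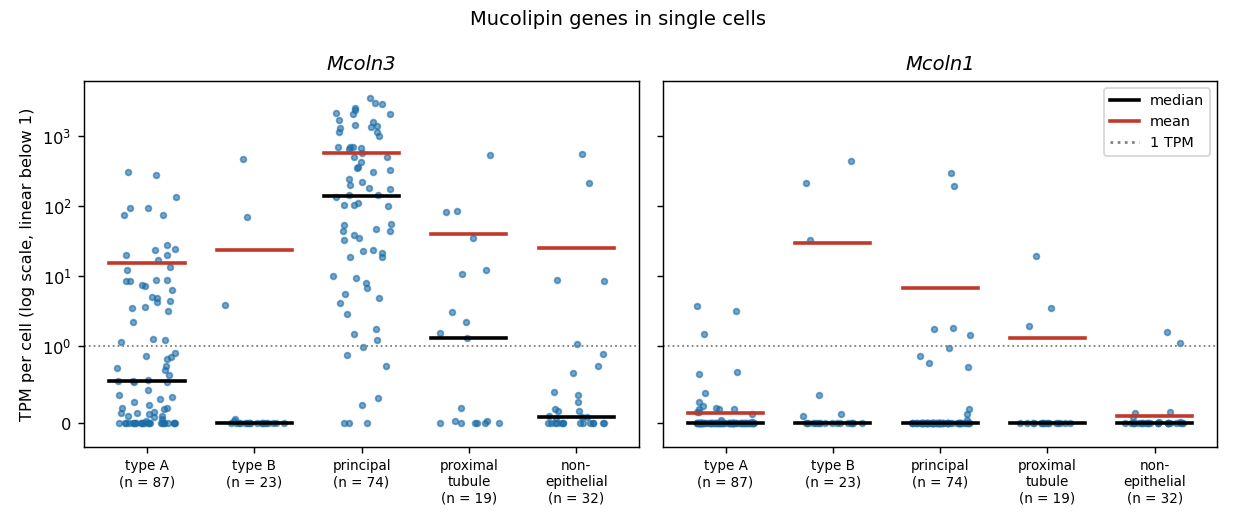
TPM of Mcoln3 and Mcoln1 in single cells by the authors' cell type (vertical axis, log scale that is linear below 1), with 1 point per cell, black lines at the median, red lines at the mean and a dotted line at 1 TPM. Mcoln3 is spread over principal cells with a median of 137 TPM, while most cells of every type have Mcoln1 at or near 0.

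The 5 genes most like Mcoln3 over all cells, by Pearson's r of log2(TPM + 1) over the 7279 genes that averaged 10 TPM or more, were Apela (0.68), Aqp2 (0.68), Fxyd4 (0.67), Kcnj1 (0.64) and Tspan8 (0.64). Apela encodes a peptide hormone, Fxyd4 a regulator of the sodium pump, Kcnj1 the potassium channel ROMK and Tspan8 a tetraspanin. Their means in principal cells were 1248 TPM for Apela, 2142 for Aqp2, 5518 for Fxyd4, 814 for Kcnj1 and 988 for Tspan8. Apela and Aqp2 were detected in 49 and 58 of 87 type A cells, against 33 for Mcoln3. Such a likeness was not computed for Mcoln1 or Mcoln2, which were detected in too few cells.

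Family make-up differed between samples. Mcoln3 made up between 79.2% and 95.6% of the summed mucolipin TPM in the CCDs and 86.0% and 88.0% in the DBA samples. In the c-Kit samples the share was 44.0% and 48.5%, and in the cTALs it ran from 0.409% to 1.77%, with nearly all the rest from Mcoln1. In RPKM the share was 22.7% and 26.3% in GFP-negative and 82.1% and 87.1% in GFP-positive samples. The family sum ran from 417 to 1731 TPM in CCD and from 46.8 to 92.9 TPM in cTAL.

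**Figure D5:**
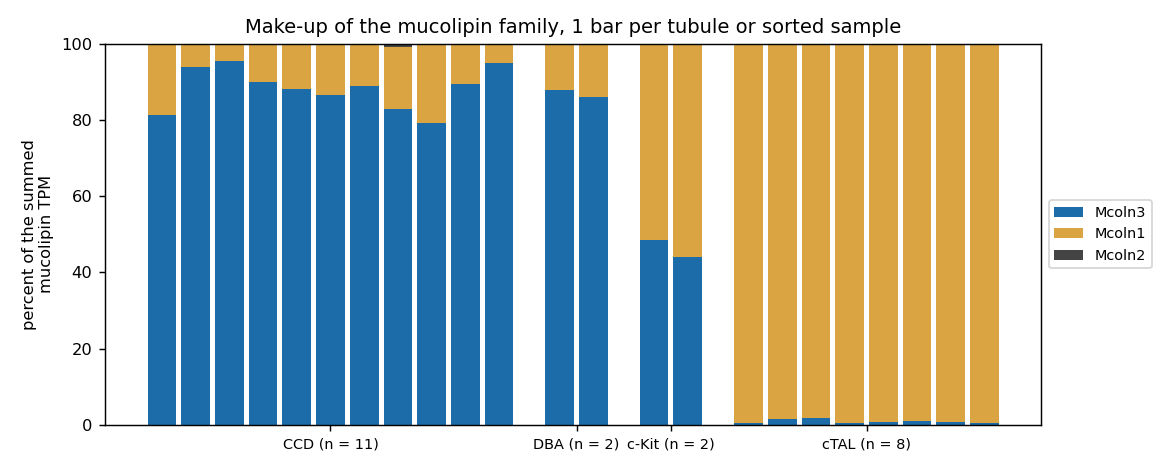
Share of each mucolipin gene in the summed mucolipin TPM (vertical axis, percent), with 1 stacked bar per CCD, DBA, c-Kit or cTAL sample. Mcoln3 makes up 79.2% to 95.6% of the CCD bars, 44.0% and 48.5% of the c-Kit bars and under 2% of the cTAL bars.

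Among 28 TRP channel genes, the members included, Mcoln3 had the highest mean TPM in CCDs. It was followed by Trpv4, an osmosensitive channel, at 219 ± 57.3 TPM, Mcoln1 at 98.2 ± 30.3, Pkd2, the polycystin-2 gene, at 50.0 ± 23.8 and Trpm7, a channel fused to a kinase, at 23.3 ± 16.9 TPM (SD, n = 11). In cTALs Mcoln1 led at 67.8 ± 14.2 TPM, followed by Pkd2 at 63.2 ± 26.7 and Trpm7 at 20.6 ± 12.8 TPM (SD, n = 8). The means of Mcoln1 and Pkd2 there lay within their spread. In principal single cells the channels after Mcoln3 were, by mean, Trpm7 at 78.0, Trpv4 at 36.8, Pkd2 at 35.8, Mcoln1 at 6.60, Trpv5 at 6.30 and Trpm1 at 5.34 TPM. Medians were 0.835 TPM for Trpm7, 0.18 for Trpv4 and 0.88 for Pkd2. Trpv5 and Trpm1 were each detected in 3 of 74 cells, and without the highest cell averaged 0.343 and 0.820 TPM. Trpm7 averaged more in proximal tubule (155), type A (107) and type B cells (103 TPM), and less in non-epithelial cells (63.4 TPM).

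Of 25 other TRP channel genes 8 were tested between the segments, and 4 were higher in CCD and 4 did not pass (median log2(TPM + 1) difference 1.01, against 0.31 over all genes tested, of which 13.2% were higher). Trpv6, Trpv5 and Trpm1 passed the filter of 1 TPM through the CCDs alone, with means of 19.4, 4.52 and 3.05 TPM. In cTALs they averaged 0.0363, 0.00375 and 0.0338 TPM. The count and the median are therefore partly set by the filter. Trpv4 rose by 6.64 and Trpv6, a calcium-selective channel, by 4.03. Over the alternatives Trpv4 ran from 5.05 to 8.04 and Trpv6 from 2.09 to 6.99. In c-Kit against DBA 2 of 13 tested were higher and 6 lower (median -0.43, against -0.11 over all genes, of which 16.1% were higher and 28.1% lower), with Trpv6 at -2.05 and Trpm1 at -1.77 lower and Trpm3 at 2.09 higher. Over the alternatives these ran from -2.32 to -1.38 for Trpv6, from -3.54 to -0.63 for Trpm1 and from 0.92 to 3.18 for Trpm3, and none of these calls was lost where the gene was tested. Trpm1 (0.165 TPM in c-Kit, 3.04 in DBA) and Trpm3 (5.445 and 0.51 TPM) passed the filter of 1 TPM through 1 group alone. Trpv5, the other channel higher in c-Kit, lost its call without the filter (adjusted p = 0.0686, limma) and also without either DBA sample. Its difference ran from 0.57 to 1.18 leaving out a sample. In the GFP comparison 7 of 18 tested were higher and 2 lower (median 0.27, against 0.02, with 15.2% of all tested genes higher and 17.3% lower), led by Trpv5 at 5.47 and Trpc5 at 4.70, and by Trpc1 at -2.53 among those lower. Trpv2, the other one lower, ran from -2.42 to -1.51 leaving out a sample, and its call depended on single samples.

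Other lysosomal channels and the PI(3,5)P2 machinery, which makes the lipid that opens mucolipins, formed a list of 9 genes. Of these 9 (Pikfyve, Fig4, Vac14, Tpcn1, Tpcn2, P2rx4, Tmem175, Clcn7 and Ostm1) 0 passed between CCD and cTAL by limma, and 0 had an unadjusted p under 0.05 (median difference 0.39, against 0.31 over all genes tested). Over all genes tested between the segments 18.7% passed. In c-Kit against DBA 1 was higher and 3 lower (median -0.29, against -0.11), where 44.3% of all tested genes passed. Tmem175, a lysosomal potassium and proton channel, fell by 0.44 in c-Kit, and Tpcn2, a 2-pore channel, fell by 0.74, a call lost without either DBA sample. The calls of Clcn7, which was lower, and P2rx4, which was higher, were also lost under several alternatives (adjusted p up to 0.219 and 0.110, limma). In GFP-positive cells 2 were lower and the other 7 did not pass (median -0.24, against 0.02 over all genes tested, of which 17.3% were lower). Tpcn1 led at -1.08 and did not pass on RPKM.

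Of 9 genes of calcium and Tfeb signalling 2 were higher in CCD and the other 7 did not pass (median 0.09, against 0.31 over all genes tested, of which 18.7% passed). Tfeb, the transcription factor itself, rose by 1.00 and Syt7, a calcium sensor of lysosome fusion, by 2.51 on the log2(TPM + 1) scale. The Tfeb call was lost on means per m number (adjusted p = 0.0725, limma), and Syt7 ran from 1.06 to 4.92 over the alternatives. Syt7 passed the filter of 1 TPM through the CCDs alone, at 5.91 TPM against 0.0813 TPM in cTALs. In GFP-positive cells 4 were higher and 5 did not pass (median 0.53, against 0.02 over all genes tested, of which 32.6% passed). Syt7 rose by 3.89, Mitf by 1.51, Tfeb by 1.18 and Tfe3 by 0.77. The Tfe3 call was lost when any 1 of the 4 samples was left out and the Tfeb call without GFP-positive replicate 2, and neither passed on RPKM. In c-Kit against DBA 1 was higher and 2 lower (median -0.06, against -0.11, with 44.3% of all tested genes passing). Tfe3 was at -0.57 and Syt7 at 1.01, the latter not called without DBA replicate 1 and between 0.35 and 1.88 over the alternatives. Syt7 passed the filter there through c-Kit alone, at 1.945 TPM against 0.465 TPM in DBA. In single cells Syt7 reached 1 TPM in 8 of 23 type B cells and in no principal cell.

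Genes of 25 lysosomal proteins changed in both directions. Between the segments 9 were higher in CCD and 2 lower (median 0.67, against 0.31 over all genes tested, of which 13.2% were higher and 5.50% lower). Hexa, a lysosomal hydrolase gene, rose by 1.40, while Glb1, a beta-galactosidase, fell by 1.11 and Ctsb, a cathepsin, fell by 0.52. Both calls toward cTAL were lost on means per m number (adjusted p = 0.0557 for Glb1 and 0.0564 for Ctsb, limma). In GFP-positive cells 2 were higher and 12 lower (median -0.52, against 0.02, with 15.2% of all tested genes higher and 17.3% lower), with Glb1 at -2.39, Lipa at -1.77, Neu1 at -1.58 and Naglu at -1.56 lower and Hexa at 2.09 higher. In c-Kit against DBA 4 were higher and 13 lower (median -0.27, against -0.11, with 16.1% of all tested genes higher and 28.1% lower). Ctsf rose by 1.16 there, and Lipa at -1.22 and Scpep1 at -0.97 were lower.

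The protein-coding neighbours of the Mcoln3 and Mcoln2 pair were measured in the same comparisons. Syde2, on the Mcoln3 side, was lower in GFP-positive cells, at a log2 difference of -0.65 (adjusted p = 0.0461, edgeR with Benjamini-Hochberg adjustment) and in c-Kit, at -0.75 (adjusted p = 0.00622, limma). Lpar3, a lysophosphatidic acid receptor on the Mcoln2 side, was lower in GFP-positive cells, at -2.43 (adjusted p = 0.00175, edgeR) and in c-Kit, at -0.89 (adjusted p = 0.00435, limma). Ssx2ip passed in none of the 3 comparisons, with differences of -0.13, 0.15 and -0.72 in GFP, sorted and tubule samples. Between the segments Syde2 did not pass either (-0.32, adjusted p = 0.770, limma), and Wdr63 and Lpar3 were under the filter. In the c-Kit and DBA samples Syde2 and Lpar3 had the same sign as Mcoln3, and in the GFP samples the opposite sign.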

How the data were processed

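Tables deposited by the authors were analysed. TPM was given by the authors for single cells, c-Kit and DBA samples and tubules, RPKM values were deposited for the GFP samples beside raw read counts, and both rest on RefSeq mm10 per the file headers and names. The submitters' processing notes name GRCm38.p5, STAR 2.5.1b, RSEM 1.2.31 and Seurat with no role for each. Among listed GFP reads, 66.7% to 72.8% were outside genes and stayed out of library sizes. The number of unused per-sample columns was 0.

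Counts were compared with edgeR 4.0.16 (TMM, filterByExpr, quasi-likelihood test), and TPM with limma 3.58.1, which was run on log2(TPM + 1) for genes that averaged 1 TPM or more and used a variance trend. Adjustment of p-values was by Benjamini-Hochberg over all genes tested, with calls under 0.05. Only the 2 groups compared entered a fit. TPM tables were normalized separately, so levels across them are set side by side without a test. In single cells detection meant at least 1 TPM, with exact Clopper-Pearson 95% intervals. Fits were tested on simulated data in which only genes of higher level were changed. Recovery of scarce genes, such as Mcoln2 in the TPM tables, was not tested. The members and lists were chosen with earlier results of these data known, and of each list at most the 4 called genes per direction with the largest difference are named (2 for other TRP channels). Values of some list genes are not reported here; they stay in the fits, counts and medians. Alternatives were DESeq2 1.42.0, other size factors, filters, pseudocounts, RPKM, quantile normalization, no variance trend, sample weights, a replicate block, leaving out each sample, and other cell summaries and detection thresholds. The m-number block, the mean per m number and the means without cells richer in principal markers were added after seeing the data.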

Additional observations from a re-analysis of the deposited data

How the results depend on the processing

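Mcoln3 kept its direction and its call under every alternative run. Its log2 difference ran from 7.16 to 10.25 between CCD and cTAL (8.88 to 9.10 leaving out a tubule, 8.17 after quantile normalization), from -3.11 to -2.78 between c-Kit and DBA, and from 2.63 to 3.51 in the GFP samples (2.88 to 3.51 leaving out a sample). Mcoln1 in GFP samples ran from -0.87 to -0.66 leaving out a sample, and Mcoln2 from -3.31 to -2.43. On RPKM Mcoln1 was -1.12, Mcoln2 -1.60, and 1639 genes were called against 5101 on counts. Leaving out a GFP sample gave 3616 to 4211 calls. Mcoln1 between c-Kit and DBA turned from 0.01 to -0.0263 without c-Kit replicate 1 and to -0.00247 without DBA replicate 1 (range -0.0263 to 0.0516), where 6348 calls became 3458 to 5701. Between the segments Mcoln1 ran from 0.41 to 0.57 leaving out a tubule and was called with sample weights alone (0.58, adjusted p = 0.00892, limma), where calls went from 2526 to 4401. Leaving out a tubule gave 2239 to 3078 calls. Quantile normalization moved calls higher and lower in CCD from 1782 and 744 to 1221 and 1244, with the median of all genes going from 0.31 to -0.03, and in c-Kit from 2315 and 4033 to 3055 and 3072.

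Replicate numbers did not show pairing in every pair (correlations of 0.17 for GFP, 0.03 for c-Kit and DBA, 0.02 to 0.16 for m numbers). With the replicate number as a block the GFP differences were -0.75 for Mcoln1, -2.84 for Mcoln2 and 3.21 for Mcoln3 (5897 calls), and those of c-Kit and DBA 0.01 for Mcoln1 and -2.95 for Mcoln3 (6271 calls). The m number as a replicate block gave 8.94 for Mcoln3 and 0.48 for Mcoln1 (2588 calls), and means per m number with that block 9.00 and 0.57 (1214 calls), where Tfeb, Glb1 and Ctsb were no longer called. In principal cells Mcoln3 went from a mean of 555 TPM to 515 without the highest cell and to a median of 137, and its share from 89.2% to 95.9% above 0 or at 0.1 TPM or more and to 74.3% at 10 TPM or more. The type A share moved in all 4 alternatives: 33 of 87 cells reached 1 TPM, and only 23 of 87 were at 0. In other types 6 of 19 proximal tubule, 14 of 32 non-epithelial and 17 of 23 type B cells were at 0. Mcoln2 had the fewest reads of the 3 members, 13 to 152 per GFP sample.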
